A study of Mus musculus with 3 samples.

Results

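The genes described here encode the subunits of the mitochondrial respiratory chain and of the ATP synthase. They were chosen by symbol alone. The nuclear set held every symbol that begins with Ndufa, Ndufb, Ndufc, Ndufs or Ndufv and a digit, Sdha to Sdhd, and every symbol beginning with Uqcr, with Cox4 to Cox8 or with Atp5. The mitochondrially encoded set held the symbols mt-Nd, mt-Co, mt-Cytb and mt-Atp. This gave 82 nuclear and 13 mitochondrially encoded genes, 95 of the 17775 symbols in the deposited tables, and all 95 had a row in the tables of all 3 libraries.

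The libraries were made from single cells of the mouse pituitary's intermediate lobe (IL), which lies between the anterior and posterior lobes and has the melanotroph as its main endocrine cell. There was 1 library for each genotype. All mice were 3 months old and heterozygous for Sox9iresCreERT2, a Cre recombinase that tamoxifen activates in cells with Sox9 activity, a gene of pituitary stem cells (SCs). By the labels, WT (Sox9iresCreERT2/+) carried no further allele, P27NULL also had both copies of p27 (Cdkn1b, a cell cycle inhibitor) deleted, and S2CK had the p27 deletion together with 1 floxed copy of Sox2. The study's methods add a Rosa26ReYFP reporter and a mixed background. All groups were given tamoxifen, by gavage at 4 weeks according to the labels, whereas the study's text places Cre induction at birth. Each library was a pool of animals, male for WT and of both sexes for the others, and the posterior lobe had been removed.

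Depth was 8332285 UMIs in 2020 cells for WT, 15588317 UMIs in 4153 cells for P27NULL and 19239147 UMIs in 3488 cells for S2CK. A UMI is the tag that marks 1 captured transcript. No more than 4 cell barcodes were shared by any pair of libraries. Levels are given as CPM, the UMIs of a gene or set per 1000000 UMIs of the same cell type and library, with exact 95% Poisson intervals. These intervals, and those of the log2 ratios between libraries, cover counting error only. With 1 library per genotype, no difference between genotypes could be tested, and genotype, animal pool and library cannot be told apart.

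Some labels need a remark before the results. In melanotroph-like cells Cdkn1b stood at 33.8 CPM in WT (29.3 to 38.7), 30.9 CPM in the library labelled P27NULL (28.0 to 34.0) and 16.9 CPM in S2CK (15.1 to 19.0). The level in the library labelled P27NULL was thus not lower than in WT beyond counting error, although 3′ reads need not lie in the deleted part of the gene. Below, P27NULL stands for the library with that label. Sox2, a transcription factor of pituitary SCs, stood at 269.8 CPM in SC-like cells of WT, 308.4 CPM in those of P27NULL and 130.6 CPM in those of S2CK, and the last interval (104.5 to 161.3) did not reach the others. Sex also differed. No melanotroph-like cell of WT had a UMI of the female-specific transcript Xist, 638 of 3487 in P27NULL had one and no Y-linked UMI, and the same held for 2873 of 2989 in S2CK. Values within 1 sex are therefore given beside the results they change.

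As background, electrons from NADH enter the chain at complex I and electrons from succinate at complex II. They pass through complex III to complex IV, cytochrome c oxidase, which reduces oxygen, and the proton gradient built on the way drives the ATP synthase. Most subunits are encoded in the nucleus and imported, while some core subunits of complexes I, III and IV and part of the ATP synthase are encoded on mitochondrial DNA and transcribed from it as long polycistronic RNAs. Endocrine cells that make and secrete peptide hormones use ATP from this pathway for synthesis and exocytosis. Of the nuclear genes, 35 belonged to complex I, 4 to complex II, 8 to complex III, 19 to complex IV and 16 to the ATP synthase. The mitochondrial genes comprised 7 of complex I, 1 of complex III, 3 of complex IV and 2 of the ATP synthase. The nuclear genes lay on 19 chromosomes.

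Cell types were rebuilt from clusters and named by marker lists. Melanotroph-like cells numbered 1271 in WT, 3487 in P27NULL and 2989 in S2CK, and SC-like cells 141, 105 and 92. Gonadotroph-like, Pou1f1-lineage-like (cells of the somatotroph, lactotroph and thyrotroph branch), macrophage-like, endothelial-like and connective tissue-like cells were found with at least 20 cells in every library. Transcripts of Pomc, the melanotroph hormone precursor, stood in these other types at 0.743 to 47.0% of the melanotroph-like level, which is a measure of the RNA from other cells in each droplet.

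In melanotroph-like cells the nuclear genes together took nearly the same share of transcripts in the 3 libraries. Their sum was 42133 CPM in WT (interval 41970 to 42297), 42281 CPM in P27NULL (42172 to 42391) and 42447 CPM in S2CK (42349 to 42545). The mitochondrial sum was 54519 CPM in WT (54333 to 54705), 51065 CPM in P27NULL (50945 to 51186) and 74680 CPM in S2CK (74550 to 74810). S2CK therefore had 1.76 mitochondrial UMIs for each nuclear one, against 1.29 in WT and 1.21 in P27NULL. On the log2 scale the nuclear sum of P27NULL against WT differed by 0.0051 (-0.0017 to 0.012) and that of S2CK against P27NULL by 0.0056 (0.00063 to 0.011), whereas the mitochondrial sum differed by -0.09 (-0.10 to -0.09) and 0.55 (0.54 to 0.55).

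SC-like cells had the same order in the mitochondrial sum. It was 56450, 51801 and 79155 CPM in WT, P27NULL and S2CK. The nuclear sum was 41573 CPM in WT (41042 to 42108), 38950 CPM in P27NULL (38325 to 39584) and 36823 CPM in S2CK (36361 to 37290), with no overlap of the intervals. Scaling decided the direction of the last step. With TMM factors, which set most genes level between libraries, every log2 ratio of S2CK against P27NULL moved by 0.13 in melanotroph-like and by 0.11 in SC-like cells, the nuclear sum of SC-like cells went from -0.08 to 0.03 and that of melanotroph-like cells from 0.0056 to 0.14. The corresponding shifts for P27NULL against WT were -0.08 and -0.07.

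**Figure D1:**
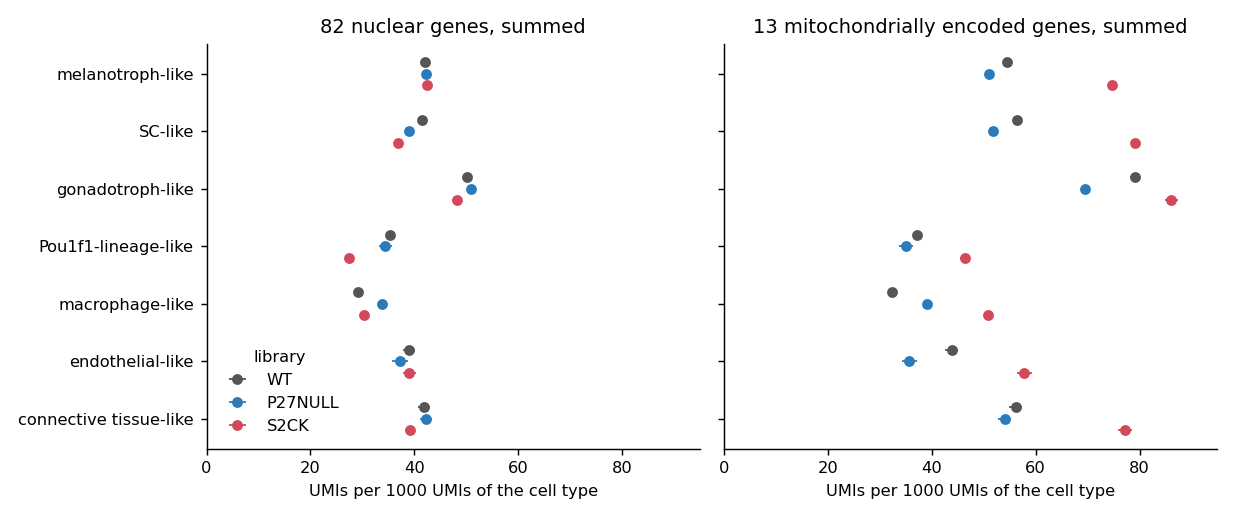
Summed level of the 82 nuclear (left) and 13 mitochondrially encoded (right) genes in 7 cell types, in UMIs per 1000 UMIs of the cell type, with 1 point per library and 95% Poisson intervals, mostly hidden by the points. The S2CK point lies to the right of both others in every cell type on the right, from 46393 to 86066 CPM, while the 3 points nearly coincide for melanotroph-like cells on the left.

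The higher mitochondrial sum of S2CK was found in every cell type compared. Against P27NULL its log2 ratio lay between 0.31 and 0.70 in the 7 types, with the interval above 0 in 7 of 7, and against WT between 0.12 and 0.65, again in 7 of 7. The lowest level of S2CK was 46393 CPM in Pou1f1-lineage-like cells, where WT had 37232 CPM and P27NULL 35054 CPM. The highest was 86066 CPM in gonadotroph-like cells, against 79098 and 69588 CPM in WT and P27NULL. The nuclear sum had no common direction, since S2CK against P27NULL was above 0 in 2 types and below 0 in 5.

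Per cell, the median share of UMIs from the mitochondrial genes was 5.34% in melanotroph-like cells of WT, 4.76% in P27NULL and 7.55% in S2CK. In SC-like cells the medians were 5.32%, 4.96% and 8.03%. The median share of the nuclear genes in melanotroph-like cells was 4.28%, 4.27% and 4.28%. Cells above 10% mitochondrial content had been removed before deposit, and this limit fell closest to the S2CK cells. The share above 9% was 11.4% of melanotroph-like cells in S2CK (95% Clopper-Pearson interval 10.3 to 12.6%), 1.5% in WT (0.902 to 2.33%) and 0.315% in P27NULL (0.158 to 0.564%). For SC-like cells it was 21.7% (13.8 to 31.6%), 1.42% (0.172 to 5.03%) and 0 of 105 cells (up to 3.45%). For gonadotroph-like cells it was 40.5% in S2CK (24.8 to 57.9%), 15.2% in WT (6.34 to 28.9%) and 4.72% in P27NULL (1.75 to 10.0%). The limit thus lay within the upper tail of the S2CK cells and, in gonadotroph-like cells, also of the WT cells. Its effect on the ratios was not tested.

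**Figure D2:**
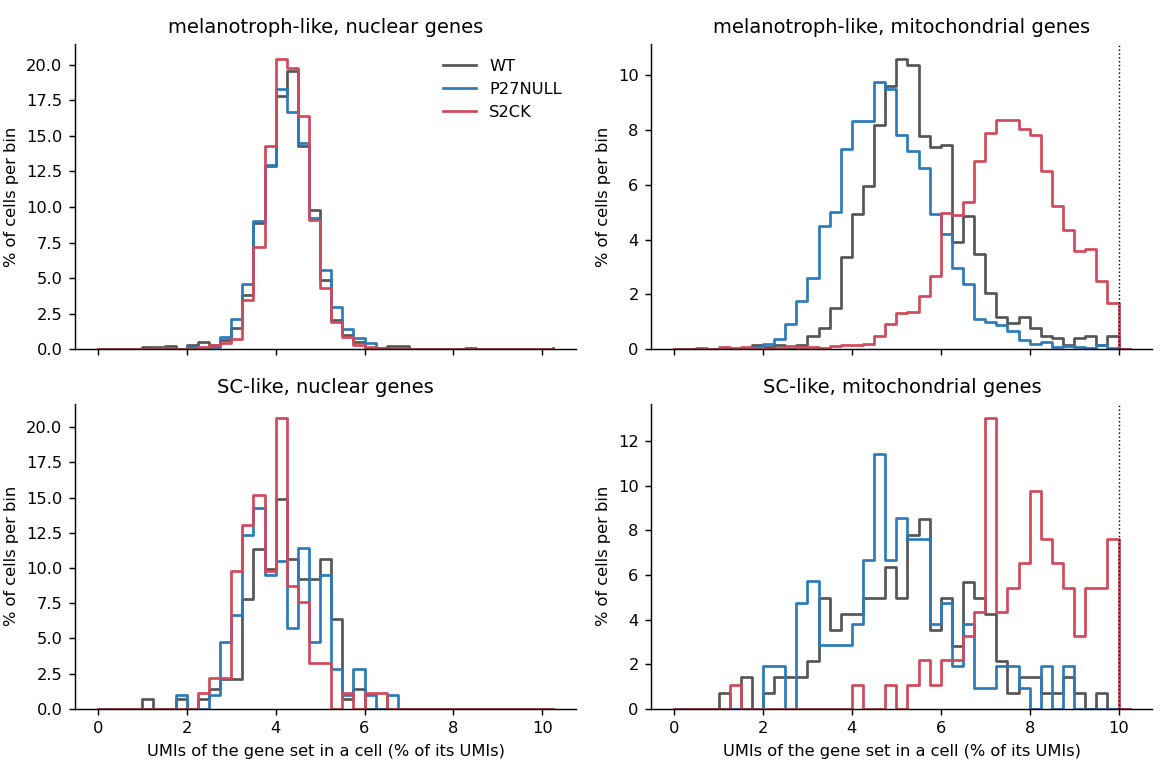
Share of a cell's UMIs that came from the nuclear (left) or mitochondrial (right) genes, in %, for melanotroph-like (top) and SC-like (bottom) cells, as the percentage of cells in each bin, with 1 line per library. The dotted line marks the 10% limit of the deposited cells. The nuclear lines overlie each other in melanotroph-like cells, and the S2CK line on the right is shifted toward the limit.

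The higher share in S2CK was also present at matched depth, whereas the order of WT and P27NULL depended on depth. Among melanotroph-like cells with 4000 to 8000 UMIs the median mitochondrial share was 5.20% in 569 cells of WT, 5.29% in 824 of P27NULL and 7.51% in 2122 of S2CK. Below 2000 UMIs the medians of WT and P27NULL were 6.09% and 4.21%, between 2000 and 4000 UMIs 5.47% and 4.72%, and above 8000 UMIs 5.47% and 5.53%. Within P27NULL the share went from 4.21% in cells below 2000 UMIs to 5.53% above 8000, while in S2CK it lay between 7.49% and 7.70% in all 4 bins. Between the clusters of melanotroph-like cells, the mitochondrial sum ranged from 50802 to 56642 CPM in the 5 clusters of WT, from 43675 to 57385 CPM in the 8 of P27NULL and from 69825 to 79339 CPM in the 9 of S2CK. No cluster of S2CK overlapped with a cluster of the other libraries. The nuclear sum ranged from 39958 to 44407 CPM over all of them.

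Sex was compared where 1 library held both. In P27NULL, melanotroph-like cells with Xist and no Y-linked UMI had a mitochondrial sum of 52061 CPM and those without Xist one of 50740 CPM, a log2 difference of 0.04 (0.03 to 0.05). The nuclear difference was -0.04 (-0.05 to -0.03). These groups of cells were not matched for depth, with which the mitochondrial share of P27NULL varied. The part of depth in the difference was not tested. S2CK against only the female cells of P27NULL gave 0.52 for the mitochondrial sum in melanotroph-like and 0.50 in SC-like cells. The SC-like value rested on only 18 female cells of P27NULL.

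The mitochondrial genes did not move as a block. In melanotroph-like cells, mt-Atp6, the proton channel subunit of the ATP synthase, had 7162, 6934 and 11927 CPM in WT, P27NULL and S2CK. mt-Cytb, the cytochrome b core of complex III, had 8780, 6880 and 11804 CPM. mt-Co2, the subunit of complex IV that takes electrons from cytochrome c, had 7924, 6995 and 11883 CPM. S2CK was highest for each. Against P27NULL the log2 ratios were 0.78 (0.77 to 0.79) for mt-Atp6, 0.78 (0.77 to 0.79) for mt-Cytb, 0.76 (0.75 to 0.78) for mt-Co2 and 0.71 (0.70 to 0.72) for mt-Co3, another core subunit of complex IV. The intervals of these 4 genes lay above 0 in 7 of 7 cell types.

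mt-Co1, which holds the oxygen-reducing site of complex IV, stood lower in that order, with 11411, 11193 and 14467 CPM and a log2 ratio of 0.37 (0.36 to 0.38). The subunits of complex I, which form its membrane arm, had smaller ratios. They were 0.29 (0.26 to 0.31) for mt-Nd2, 0.28 (0.27 to 0.30) for mt-Nd4, 0.23 (0.19 to 0.26) for mt-Nd3, 0.10 (0.02 to 0.19) for mt-Nd6 and 0.04 (0.01 to 0.07) for mt-Nd1. None of these 5 passed a log2 ratio of 0.32 either way, the fold limit used here for calling a gene higher or lower. With TMM factors mt-Nd2 (0.42), mt-Nd4 (0.41) and mt-Nd3 (0.36) passed it. mt-Nd1 went to -0.13 when S2CK was set against only the female cells of P27NULL.

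Another group was lower in S2CK. mt-Atp8, a small subunit of the ATP synthase, had 398.8, 480.0 and 283.5 CPM in WT, P27NULL and S2CK, a log2 ratio against P27NULL of -0.76 (-0.81 to -0.71). mt-Nd4l, a small subunit of complex I, had 1767, 1621 and 1135 CPM, a ratio of -0.51 (-0.54 to -0.49). mt-Nd5 had 739.5, 858.6 and 683.2 CPM, a ratio of -0.33 (-0.37 to -0.29), which was -0.20 and short of the fold with TMM factors. In all, 5 of 13 mitochondrial genes were higher and 3 lower by this fold in S2CK against P27NULL, where 11.2% of all 5902 genes with enough UMIs were higher and 27.9% lower. With TMM factors the split was 8 and 2, and 19.8% and 17.1% over all genes. In SC-like cells 8 were higher and 2 lower, against 22.7% and 30.5% of 2965 genes.

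**Figure D3:**
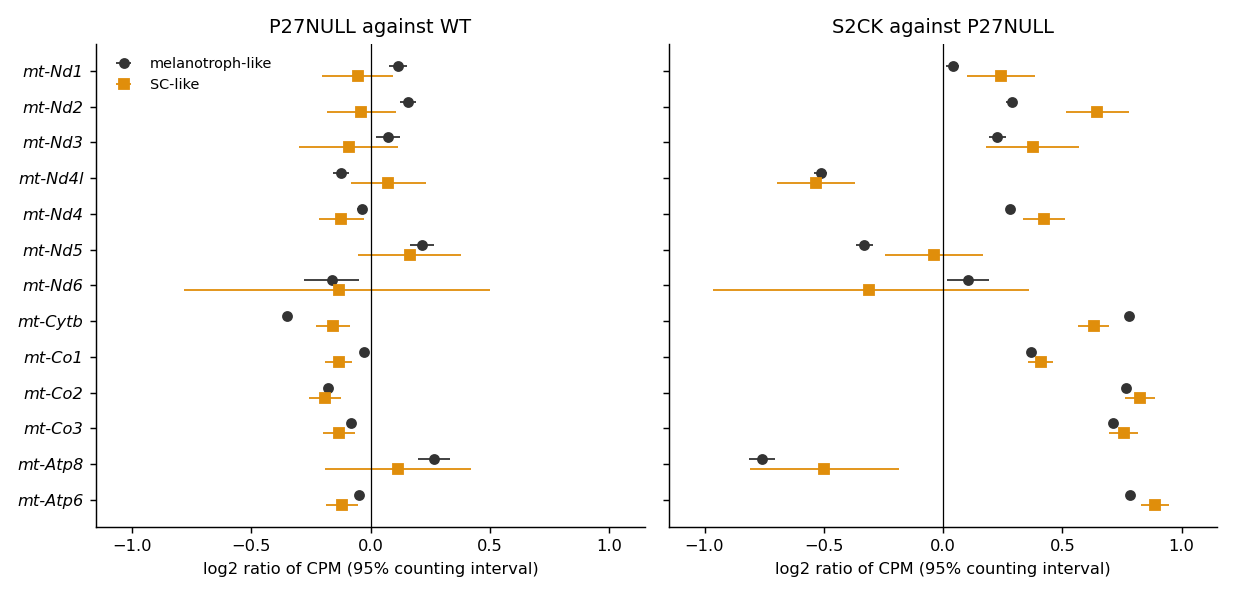
Log2 ratio of CPM for the 13 mitochondrially encoded genes, P27NULL against WT (left) and S2CK against P27NULL (right), in melanotroph-like (circles) and SC-like (squares) cells, with 95% counting intervals. On the right, mt-Cytb, mt-Co2, mt-Co3 and mt-Atp6 lie between 0.63 and 0.89, and mt-Nd4l and mt-Atp8 lie below 0 in both cell types. Both panels use the P27NULL library.

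mt-Atp8 and mt-Nd4l each share a bicistronic messenger with a neighbour, mt-Atp6 and mt-Nd4, and overlap it by 43 and 7 bases. The split of reads between the members of a pair is therefore uncertain, and near-identical copies of mitochondrial genes in the nuclear genome add to this. Of the UMIs of mt-Atp8 and mt-Atp6 together, mt-Atp8 took 4.34 to 7.78% over the 7 cell types of WT, 5.08 to 8.22% in P27NULL and 1.77 to 3.05% in S2CK. Of mt-Nd4l and mt-Nd4 together, mt-Nd4l took 25.2 to 33.6% in WT, 26.2 to 33.0% in P27NULL and 16.6 to 20.5% in S2CK. For both pairs the range of S2CK lay below the other ranges, without overlap. mt-Nd5 and mt-Nd6 overlap by 14 bases on opposite strands.

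P27NULL differed less from WT. In melanotroph-like cells, where 12.8% of all genes were higher and 3.86% lower, mt-Cytb was the 1 mitochondrial gene of 13 past the fold, at -0.35 (-0.37 to -0.34). Values for mt-Co2 and mt-Atp8 were -0.18 (-0.20 to -0.16) and 0.27 (0.20 to 0.34). In SC-like cells 0 of the 13 passed the fold, beside 17.6% of all genes higher and 18.2% lower, and mt-Cytb stood at -0.16 (-0.23 to -0.09).

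Among the nuclear genes, 0 of 74 with at least 500 UMIs in melanotroph-like cells of P27NULL and WT together were higher and 0 lower by the fold, while 12.8% of all 4459 such genes were higher and 3.86% lower. The median of the 74 was -0.02, that of all genes 0.05. With TMM factors 0 were higher and 2 lower, and 8.03% and 6.37% over all genes. The values furthest from 0 were those of Atp5e, which encodes the epsilon subunit of the ATP synthase (0.27, 0.25 to 0.29), Sdhc, a membrane anchor of complex II (0.21, -0.03 to 0.45), and Atp5k, the e subunit of the ATP synthase (0.20, 0.14 to 0.25). At the other end stood Cox5a of complex IV (-0.28, -0.37 to -0.18) and the complex I genes Ndufs4 (-0.26, -0.37 to -0.14) and Ndufc2 (-0.24, -0.29 to -0.18). Atp5e rested on 3260 and 3934 CPM in WT and P27NULL, and Cox5a on 225.5 and 186.2 CPM. Glycolytic genes, a fixed list of 17, had 6 of 13 higher and 0 lower in the same comparison, beside the same 12.8% and 3.86%. This glycolytic count was made without TMM factors. Those factors moved every log2 ratio of this comparison by -0.08, so fewer glycolytic genes could be higher with them, as was the case over all genes (8.03%).

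SC-like cells had fewer counts, and 50 UMIs in both libraries together were asked for. Here 2 of 73 nuclear genes were higher and 13 lower in P27NULL than in WT, and over all 2788 genes 17.6% were higher and 18.2% lower. The TMM split was 2 higher and 21 lower, and 13.2% and 23.7% over all genes. Complex I held 9 of the 13 lower genes and 33 of the 73 genes compared. Its subunit Ndufs4 had 198.8 and 123.9 CPM in WT and P27NULL (-0.68, -1.21 to -0.18). Ndufb3, an accessory subunit of the same complex, had a ratio of -0.56 (-0.90 to -0.23). Cox7a1, an isoform of complex IV best known from heart and muscle, had 36 and 14 UMIs (-0.79, -1.80 to 0.13). Ndufa3, an accessory subunit of complex I, was higher, with 827.0 and 1105 CPM (0.42, 0.22 to 0.61), and Sdhc had 32 and 31 UMIs (0.53, -0.24 to 1.28).

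S2CK and P27NULL differed in more of the nuclear genes. In melanotroph-like cells 17 of 75 were higher and 6 lower, beside the shares of 11.2% and 27.9% of all genes given above. The median of the 75 was 0.15 and that of all genes -0.12. With TMM factors 31 were higher and 4 lower, and over all genes 19.8% were higher and 17.1% lower. By complex, the genes higher and lower were 11 and 4 of 35 in complex I, 0 and 0 of 4 in complex II, 2 and 0 of 8 in complex III, 1 and 0 of 12 in complex IV and 3 and 2 of 16 in the ATP synthase. S2CK against WT gave 4 higher and 3 lower of 74, where 11.8% of 4728 genes were higher and 15.1% lower (with TMM factors 10 and 3, and 15.8% and 11.8%). These comparisons share libraries, so each is given on its own.

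Ndufa3 and Atp5k had the largest changes of the 75. Ndufa3 had 494.2, 547.7 and 265.4 CPM in WT, P27NULL and S2CK. Its log2 ratio of S2CK against P27NULL was -1.04 (-1.10 to -0.99) and against WT -0.90 (-0.96 to -0.83). Atp5k had 602.8, 692.1 and 379.7 CPM, with ratios of -0.87 (-0.91 to -0.82) and -0.67 (-0.73 to -0.61). S2CK was lowest for both genes, and its intervals did not reach those of the others. Ndufc1, another accessory subunit of complex I, had 962.6, 1011 and 682.2 CPM (-0.57, -0.60 to -0.53, against P27NULL). Atp5e had 3260, 3934 and 2724 CPM (-0.53, -0.55 to -0.51). The remaining lower genes were Ndufv3 (-0.35) and Ndufa1 (-0.35) of complex I.

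Ndufa3, Atp5k, Ndufc1 and Atp5e also stood low in other cell types of S2CK. In SC-like cells Atp5k had 692.1, 809.3 and 326.6 CPM in WT, P27NULL and S2CK (-1.31, -1.57 to -1.05, against P27NULL) and Ndufa3 827.0, 1105 and 449.7 CPM (-1.30, -1.52 to -1.08). The interval lay below 0 in 7 of 7 types for Ndufa3 and Ndufc1 and in 6 of 7 for Atp5k and Atp5e. It did so in 5 of 7 for Ndufa1 and in 3 of 7 for Ndufv3, each of which was above 0 in 1 type, with an interval that included 0. Between the sexes of P27NULL melanotroph-like cells, the log2 difference (female minus male) was 0.03 for Atp5k and -0.07 for Ndufa3, with intervals that included 0. It was -0.16 for Atp5e (-0.19 to -0.13) and -0.08 for Ndufc1 (-0.14 to -0.02). For Ndufv3 it was 0.10 (0.03 to 0.17) and for Ndufa1 0.06 (0.002 to 0.12). The part of sex in the differences between the libraries was not tested. RefSeq names 4 pseudogenes of Atp5k, so its counts could be split between copies, whose likeness was not measured. Over the alternatives in processing, the ratio of Atp5k ranged from -1.05 to -0.74 in melanotroph-like cells.

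At the upper end, Ndufv2, the 24-kDa iron-sulfur subunit of complex I, had 205.3, 191.7 and 262.7 CPM in WT, P27NULL and S2CK (0.45, 0.38 to 0.53, against P27NULL). Ndufs3, a core subunit of the same complex, had 151.6, 131.5 and 179.5 CPM (0.45, 0.36 to 0.53). Ndufa9 had 34.9, 30.6 and 41.8 CPM (0.45, 0.27 to 0.63). For these 3 genes S2CK was above both other libraries. Among cells with at most 5% mitochondrial UMIs, 76 of them in S2CK, the ratio was 0.023 for Ndufv2 and 0.077 for Ndufs3, below the fold. Against WT, Ndufb9 (0.45, 0.38 to 0.52) and Ndufa11 (0.44, 0.38 to 0.50), accessory subunits of complex I, had the highest ratios, followed by Ndufv2 (0.36, 0.27 to 0.45).

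In SC-like cells 14 of 72 nuclear genes were higher and 10 lower in S2CK than in P27NULL, where 22.7% of all genes were higher and 30.5% lower. They were 5 and 14 of 73 against WT, where 19.2% of 3478 genes were higher and 28.9% lower. The TMM split for S2CK against P27NULL was 23 higher and 7 lower, and 28.2% and 22.7% over all genes. Ndufa6 of complex I had 326.5, 253.1 and 364.6 CPM (0.53, 0.18 to 0.88, against P27NULL). Sdha, the flavoprotein of complex II, had a ratio of 0.55 with an interval that included 0 (-0.06 to 1.20). Against only the 18 female SC-like cells of P27NULL its ratio was -0.63. Against WT, Sdhc (0.58, -0.07 to 1.26) and Atp5a1, the alpha subunit of the ATP synthase (0.49, 0.16 to 0.83), were the highest.

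**Figure D4:**
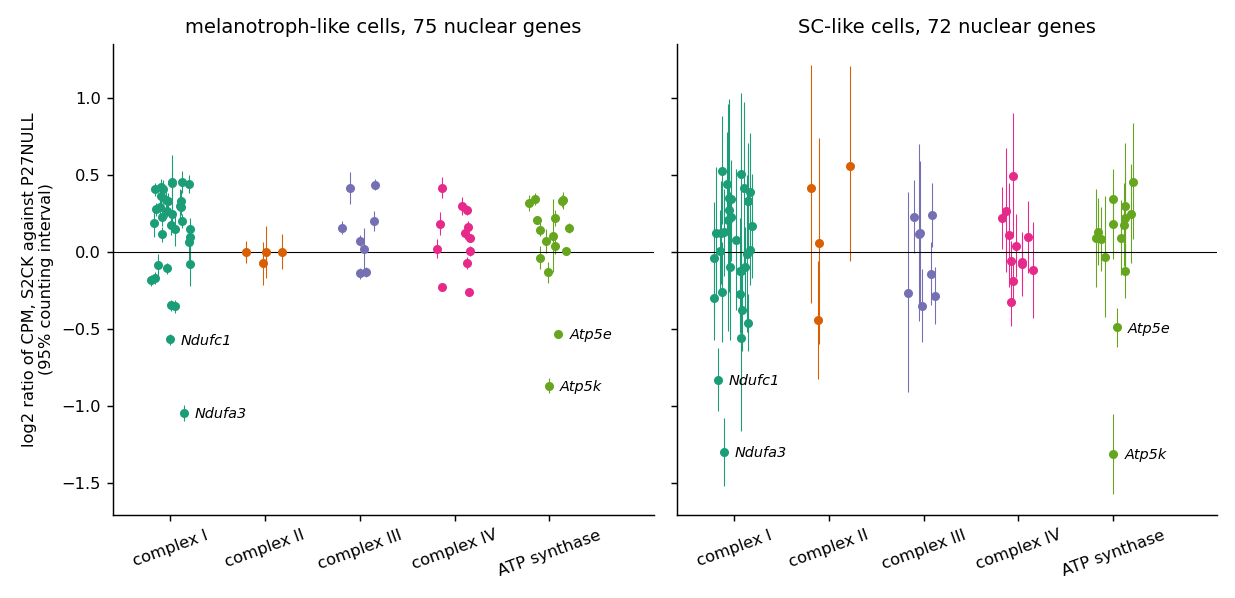
Log2 ratio of CPM of S2CK against P27NULL for each nuclear gene with enough UMIs, by complex, in melanotroph-like (left, 75 genes) and SC-like (right, 72 genes) cells, with 95% counting intervals and points spread sideways for legibility. Ndufa3, Atp5k, Ndufc1 and Atp5e lie below the other genes on the left, from -1.04 to -0.53, and the highest gene there is Ndufv2 at 0.45.

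Genes from related lists, fixed for comparison, moved as follows in melanotroph-like cells of S2CK against P27NULL, where 11.2% of all genes were higher and 27.9% lower. Mitochondrial ribosomal proteins, which translate the mitochondrial messengers, had 13 of 72 higher and 4 lower with a median of 0.19. Assembly factors of the chain had 4 of 30 higher and 7 lower, enzymes of the TCA cycle and pyruvate dehydrogenase 1 of 16 higher and 2 lower, and glycolytic genes 1 of 16 higher and 7 lower. Cytoplasmic ribosomal proteins had 44 of 81 higher and 7 lower, with a median of 0.35. The part of these differences between lists in the values of the chain was not tested. Over all genes, the log2 ratio had a Spearman correlation of -0.40 with transcript length, and over the 75 nuclear genes of 0.21, both across genes of the same libraries.

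Promoter sequences of the members were read from the RefSeq table of GRCm38.p6, 250 bases before to 50 after a start. It held 73 promoters of 68 of the nuclear genes. Searched on both strands, the core of the NRF1 motif (GCATGCGC) was found in 13.7% of them and in 2.71% of all 32851 promoters, the ETS and GABP motif (CCGGAAG) in 21.9% and 8.86%, the YY1 motif (AAGATGGCG) in 9.59% and 1.40%, and the ERR motif (TCAAGGTCA) in 2.74% and 0.423%. NRF1, GABP, YY1 and ERR are known regulators of respiratory chain genes. The stretches of 60 bases below were chosen because they belong to named genes that stood at opposite ends of the S2CK comparisons. Their labels of higher and lower give the direction in melanotroph-like cells of S2CK against both other libraries, whether or not the fold was passed. Against WT, Atp5e and Ndufs3 fell short of the fold. In SC-like cells the S2CK levels of Ndufa11 and Ndufs3 lay between those of P27NULL and WT. Each runs 5′ to 3′ on the strand of the gene, with the motif in capitals.
Atp5k (NRF1, chr5:108434414-108434473, minus strand, lower in S2CK): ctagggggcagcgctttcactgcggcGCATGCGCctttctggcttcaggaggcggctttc
Atp5e (GABP, read on the other strand, chr2:174464170-174464229, minus strand, lower in S2CK): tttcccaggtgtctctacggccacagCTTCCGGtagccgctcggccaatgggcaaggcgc
Ndufa11 (NRF1, chr17:56717678-56717737, plus strand, higher in S2CK): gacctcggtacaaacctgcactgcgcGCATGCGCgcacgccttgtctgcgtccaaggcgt
Ndufs3 (GABP, chr2:90904722-90904781, minus strand, higher in S2CK): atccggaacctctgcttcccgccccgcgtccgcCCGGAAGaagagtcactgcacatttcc
The same letters were thus present upstream of genes that were lower and of genes that were higher. A match describes the sequence and does not show binding.

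Cell types could be tested, because every library held all of them. UMIs were summed per library and cell type, and each type was compared with melanotroph-like cells by edgeR's quasi-likelihood test with the library as a block, with Benjamini-Hochberg adjustment over 5946 genes and a threshold of 0.05. The fit had 21 sums and 12 residual degrees of freedom. Of the members, 78 nuclear and all 13 mitochondrial genes passed the filter on low counts, and Atp5s, Cox6a2, Cox7b2 and Cox8b did not.

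SC-like cells had lower levels of many nuclear genes than melanotroph-like cells, with 7 of 78 higher and 24 lower (19.2% of all genes were lower and 28.1% higher). Ndufa11 had 360.3, 297.9 and 334.2 CPM in SC-like cells of WT, P27NULL and S2CK, all below the 518.8, 530.5 and 702.8 CPM of melanotroph-like cells, a log2 fold of -0.99 ± 0.15 (SE, adjusted p = 3.2e-06). Ndufa1 and Ndufv3 fell by 0.93 and 0.91 on the log2 scale (adjusted p = 0.00069 and 6.1e-05). Cox7a1 was higher, at 63.9, 36.9 and 16.7 CPM against 13.5, 9.38 and 7.24 CPM (1.68 ± 0.33, adjusted p = 0.00012). The median over the 78 genes was -0.21, that over all genes 0.06. Among the 13 mitochondrial genes mt-Nd6, a complex I subunit encoded on the opposite strand, was lower (-0.91 ± 0.19, adjusted p = 0.00028). Glycolytic genes had 9 of 14 higher and 1 lower, with a median of 0.83. Without the S2CK library 17 nuclear genes were called in place of 31.

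Gonadotroph-like cells had the highest nuclear sums of these 7 types, 50120, 50833 and 48231 CPM in WT, P27NULL and S2CK. Of 78 nuclear genes 12 were higher and 3 lower than in melanotroph-like cells, where 9.59% of all genes were higher and 7.57% lower. Ndufa1 had 2312, 1597 and 986.3 CPM against 826.2, 940.8 and 740.5 CPM (0.86 ± 0.21, adjusted p = 0.0041). Cox7a1 had 68.1, 72.4 and 28.7 CPM (2.42 ± 0.33, adjusted p = 4.2e-06). Lower were Ndufa12 of complex I (-0.61 ± 0.18, adjusted p = 0.019), Cox7a2l, which helps complexes III and IV to associate (-0.52 ± 0.16, adjusted p = 0.021), and Atp5g2, a gene for the c ring of the ATP synthase (-0.46 ± 0.15, adjusted p = 0.031). mt-Nd3 and mt-Nd1 were higher (0.74 ± 0.19 and 0.57 ± 0.19, adjusted p = 0.0065 and 0.036). The split depended on scaling and on single libraries. With library sizes that leave out Pomc, mitochondrial and ribosomal protein genes, all genes moved by -0.21 and 3 nuclear genes were higher and 5 lower, and 8, 2 and 4 were called without WT, P27NULL and S2CK. Of the genes named, Cox7a2l and Atp5g2 lost the call without any 1 library (-0.63 to -0.43 on the log2 scale), Ndufa12 without P27NULL (-0.57) or S2CK (-0.71), and Ndufa1, mt-Nd3 and mt-Nd1 without WT (0.42, 0.37 and 0.23) or P27NULL (1.0, 0.87 and 0.65).

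Pou1f1-lineage-like cells had 1 of 78 nuclear genes higher and 3 lower (4.32% and 3.97% of all genes). Atp5g1, another gene for the c ring, had 1180, 1126 and 781.9 CPM in WT, P27NULL and S2CK against 652.2, 559.2 and 617.6 CPM in melanotroph-like cells (0.95 ± 0.16, adjusted p = 0.0002). Atp5g2 was lower (-0.49 ± 0.15, adjusted p = 0.043), as were Ndufa11 (-0.64 ± 0.16, adjusted p = 0.012) and Uqcrq of complex III (-0.62 ± 0.17, adjusted p = 0.019). With the other library sizes all genes moved by -0.62, 0 nuclear genes were higher and 62 lower. Without P27NULL or without S2CK 1 nuclear gene was called. Ndufa11 (-0.69 and -0.47), Uqcrq (-0.55 and -0.50) and Atp5g2 (-0.40 and -0.44) were the ones lost, as was mt-Co1 (-0.52 and -0.66), the 1 mitochondrial gene called with all libraries (-0.62 ± 0.17, adjusted p = 0.019).

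Macrophage-like cells had 7 nuclear genes higher and 16 lower (23.1% and 18.8% of all genes). Cox5a, which with Cox4 lies next to the catalytic core of complex IV, had 435.7, 359.5 and 457.2 CPM against 225.5, 186.2 and 211.4 CPM (1.31 ± 0.17, adjusted p = 2.8e-07). Sdhd, an anchor of complex II, and Uqcrc1, a core protein of complex III, were higher by 0.72 ± 0.22 and 0.60 ± 0.22 (adjusted p = 0.011 and 0.032). Ndufa11, Ndufc1 and Ndufa12 of complex I fell by 0.76, 0.73 and 0.71 on the log2 scale (adjusted p = 0.00028, 0.0012 and 0.0042). With the other library sizes all genes moved by -0.49, and 1 nuclear gene was higher and 52 lower. Without WT 14 and without S2CK 6 were called. Sdhd lost the call without S2CK (0.50) and Uqcrc1 without WT (0.43) or P27NULL (0.61). Of the mitochondrial genes mt-Nd6 was lower (-0.60 ± 0.22, adjusted p = 0.03), and it lost the call without any 1 library (-0.61 to -0.59).

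Endothelial-like cells had more genes lower than higher in both sets, with 5 nuclear genes higher and 26 lower (22.3% and 18.4% of all genes) and 8 of 13 mitochondrial genes lower. Ndufa11 had 247.3, 234.5 and 283.0 CPM (-1.43 ± 0.18, adjusted p = 4.6e-07) and Ndufa12 181.4, 93.8 and 191.7 CPM (-1.19 ± 0.24, adjusted p = 0.00027). Ndufs1, the largest subunit of complex I, was lower on only 1, 3 and 1 UMIs (-1.80 ± 0.57, adjusted p = 0.012). Cox5a was higher as in macrophage-like cells, at 626.5, 578.4 and 611.6 CPM (1.30 ± 0.18, adjusted p = 1.7e-06). Among the mitochondrial genes mt-Co1 and mt-Co3 fell by 0.87 and 0.82 on the log2 scale (adjusted p = 0.00016 and 8e-04). Without S2CK 11 nuclear and 3 mitochondrial genes were called, and without P27NULL 4 mitochondrial ones. Ndufs1 lost the call without WT (-1.36) or S2CK (-1.40).

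Connective tissue-like cells had 5 nuclear genes higher and 12 lower (17.5% and 9.65% of all genes). Ndufa1 (-0.76 ± 0.23, adjusted p = 0.013), Uqcrfs1, the Rieske iron-sulfur protein of complex III (-0.70 ± 0.21, adjusted p = 0.011), and Atp5e (-0.66 ± 0.18, adjusted p = 0.0066) were lower. Of the 13 mitochondrial genes 0 passed the edgeR test, 1 had an unadjusted p under 0.05, and DESeq2 called 1. Without WT or P27NULL 9 nuclear genes were called, and 5 without S2CK. Ndufa1 lost the call without P27NULL (-0.74) or S2CK (-0.72), and Uqcrfs1 (-0.46) and Atp5e (-0.63) lost it without S2CK. In every type, p-values rest on the spread left after the library block, over 3 libraries of different genotypes. All types in the fit shared this estimate, so a p-value does not measure the spread of 1 type alone.

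**Figure D5:**
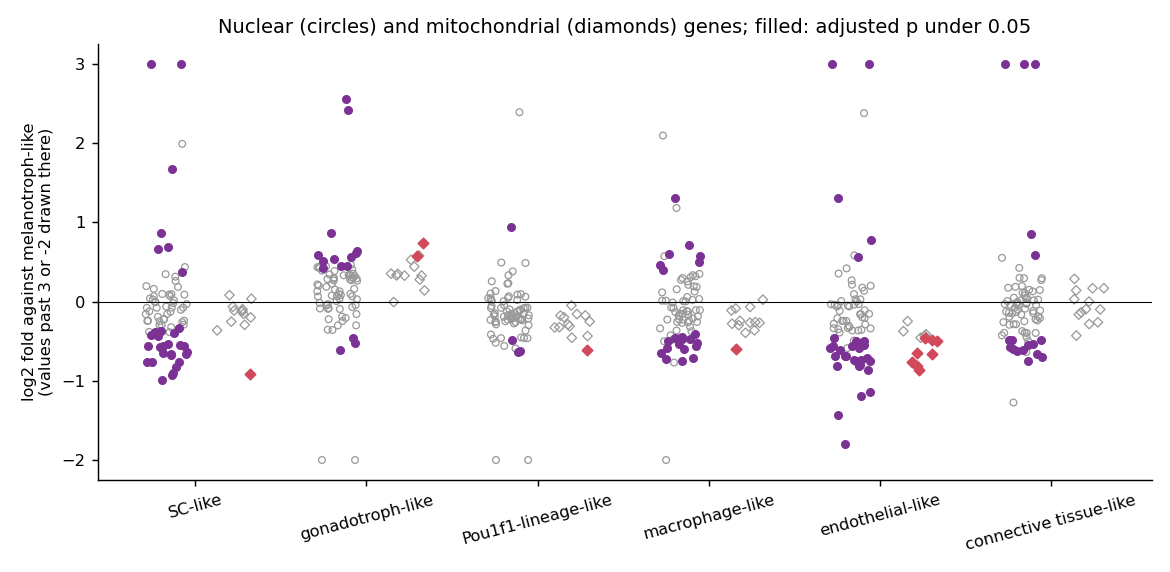
Log2 fold of each of 78 nuclear (circles) and 13 mitochondrial (diamonds) genes in 6 cell types against melanotroph-like cells, with points spread sideways. Filled symbols have an adjusted p under 0.05, and values beyond 3 or -2 are drawn at those limits. Filled nuclear symbols are mostly below 0 in SC-like and endothelial-like cells and mostly above 0 in gonadotroph-like cells.

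Some subunits of complex IV exist as isoforms from separate genes, and these divided the cell types more sharply. Cox4i1, the widespread form of subunit 4, had 657.3, 686.2 and 748.2 CPM in melanotroph-like and 816.4, 822.4 and 777.8 CPM in SC-like cells. Cox4i2, the form induced at low oxygen in lung and vessel wall, had 1, 4 and 5 UMIs in all melanotroph-like cells of WT, P27NULL and S2CK. In SC-like cells it had 6, 7 and 13 UMIs, or 10.7, 18.5 and 19.7 CPM (adjusted p = 2.6e-06). Endothelial-like cells had 74.2, 78.2 and 9.13 CPM and connective tissue-like cells 16.2, 30.2 and 118.0 CPM (adjusted p = 1e-06 and 1.4e-07). The endothelial-like values of P27NULL and S2CK rested on 5 and 1 UMIs, and the connective tissue-like ones on 2, 4 and 21. No UMI was found in gonadotroph-like or Pou1f1-lineage-like cells. Up to 39.3 CPM could have gone unseen there (3 UMIs). Fitted folds against so few melanotroph-like UMIs depend on the prior count and are not given.

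Other widespread forms were lower in SC-like than in melanotroph-like cells. Cox6a1 had 268.0, 197.7 and 278.0 CPM in SC-like and 339.7, 308.2 and 378.6 CPM in melanotroph-like cells (adjusted p = 0.00071). Cox7a2 (-0.68, adjusted p = 9e-04), Cox7a2l (-0.37, adjusted p = 0.039) and Cox8a (-0.39, adjusted p = 0.029) were lower as well. Values for Cox6b1 and Ndufa4 were -0.08 (adjusted p = 0.7) and 0.35 (adjusted p = 0.084). The c ring of the ATP synthase is encoded by 3 genes for the same mature protein. In SC-like cells Atp5g2 and Atp5g3 were lower (-0.83 and -0.54, adjusted p = 3.4e-05 and 0.0021), and Atp5g1 had a value of -0.13 (adjusted p = 0.53). All 3 passed the test in gonadotroph-like cells, where Atp5g1 and Atp5g3 were higher (0.63 and 0.56, adjusted p = 0.0049 and 0.0041).

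Ndufa4l2, a relative of the complex IV subunit Ndufa4, was found in the same types. It had 98.9, 109.4 and 9.13 CPM in endothelial-like and 48.7, 105.8 and 157.3 CPM in connective tissue-like cells (adjusted p = 4.5e-07 and 1.8e-08), and 2, 7 and 5 UMIs in melanotroph-like cells. The endothelial-like values of P27NULL and S2CK rested on 7 and 1 UMIs. Cox4i2 and Ndufa4l2 are known from pericytes, the contractile cells of small vessels. All 6 fixed pericyte markers were detected in endothelial-like cells of WT, where they summed to 783.1 CPM, and the sums were 1251 CPM with 5 of 6 detected in P27NULL and 346.9 CPM with 3 of 6 in S2CK. In connective tissue-like cells they were 194.7, 506.4 and 780.8 CPM with 4, 5 and 6 detected. SC-like cells had 30.2, 47.45 and 63.8 CPM with 5, 3 and 6 detected, and melanotroph-like cells 2.80 to 3.91 CPM. A marker with 1 UMI counted as detected. The part of pericytes in the levels of Cox4i2 and Ndufa4l2 was not tested.

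Cox6b2, the testis form of subunit 6b, had 24.9, 42.2 and 33.4 CPM in SC-like cells and 73.0, 113.4 and 39.3 CPM in connective tissue-like cells, against 0.988, 1.33 and 1.0 CPM in melanotroph-like cells (adjusted p = 3.2e-08 and 1.2e-08). In gonadotroph-like cells it passed the test on 8 UMIs of P27NULL, with 1 and 0 UMIs in WT and S2CK (adjusted p = 0.02). In the pituicyte-like cells, glia of the posterior lobe that were seen in WT and P27NULL only, it had 61.4 and 80.5 CPM. There 3 UMIs made 36.9 and 48.3 CPM. Cox8b, a muscle form of subunit 8, had 12.4, 13.2 and 10.6 CPM in SC-like and 0.165, 1.33 and 0.235 CPM in melanotroph-like cells, where it was not tested. Cox6a2, another muscle form, had 5, 0 and 0 UMIs in melanotroph-like cells and none in SC-like cells. In 1 other of the 7 types it had UMIs in both WT and P27NULL, with a log2 ratio of P27NULL against WT of -1.70.

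Cox7b2 was seen in melanotroph-like cells alone of the 7 types. It had 6 UMIs in WT, 6 in P27NULL and 63 in S2CK, or 0.988 (0.363 to 2.15), 0.443 (0.163 to 0.964) and 3.71 CPM (2.85 to 4.74). The 63 UMIs of S2CK came from 58 of 2989 cells. SC-like cells had 0 UMIs, which allows up to 5.32, 7.91 and 4.56 CPM (3 UMIs), so a level like that of melanotroph-like cells could not have been detected there. Cox7a1 had 13.5, 9.38 and 7.24 CPM in WT, P27NULL and S2CK in melanotroph-like cells. Its log2 ratio of S2CK against WT was -0.90 (-1.32 to -0.48) in melanotroph-like and -1.94 (-3.06 to -0.93) in SC-like cells, the latter on 11 and 36 UMIs. Within P27NULL its level was 5.50 CPM in female and 10.4 CPM in male melanotroph-like cells, a log2 difference of -0.92 (-1.78 to -0.15), and the part of sex in the difference between the libraries was not tested.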

How the data were processed

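Single cells of the intermediate lobe were measured on the 10x Chromium platform (3′ chemistry, version 3), with 1 library per genotype. The values are UMI counts per gene and cell. According to the labels and the methods, the authors aligned the reads to mm10 with Cell Ranger 3.0.2 (STAR 2.5.1b is also named), used Seurat 3, and removed cells with fewer than 50 genes or more than 10% mitochondrial counts before the count tables were deposited. The study names more cells per genotype than the tables hold barcodes. All deposited cells were kept here, doublets included. Columns of per-sample values left unused numbered 0.

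Each library was clustered on its own (scanpy 1.11.5, Python 3.11.15; counts scaled to 10000 per cell, 2000 variable genes, 20 principal components, 20 neighbours, resolution 1). Melanotroph-like and SC-like cells were taken from these clusters. All other types were taken from a joint clustering of the 3 libraries with the same settings. A cluster was named from marker lists where at least 3 markers were found in at least 10% of its cells. The relative marker level and lead asked for (0.3 and 0.1) were set after the data had been seen, and unnamed clusters were left out. The members and all lists were chosen with earlier results of these data known.

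UMIs were summed per library and cell type. Ratios between libraries carry exact conditional 95% intervals, and a gene was called higher or lower at a log2 ratio of 0.32 either way where both libraries together held at least 500 UMIs (50 in SC-like cells). Depth per library, which sets this precision, is given above. Cell types with at least 20 cells in every library were compared with edgeR 4.0.16 (R 4.3.3; quasi-likelihood test, TMM factors, library as block, adjusted over all genes), which was tested on simulated data. Named genes were all mitochondrial members, the 3 nuclear members with the largest increase and decrease per comparison (2 in SC-like cells), and the tissue isoforms. Levels are not compared between genes, because 3′ counts depend on each gene's end. RefSeq names pseudogenes for 8 nuclear members, among them Atp5k, Atp5l, Cox5b, Ndufa12 and Uqcrh. Their likeness to the genes was not measured, and the counts of these members are uncertain. Alternatives were other scalings, cell filters, joint clusters for every type, values within a sex and DESeq2 1.42.0. Further ones were other filters on genes, no library block, subtraction of free RNA and leaving out each library.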

Additional observations from a re-analysis of the deposited data

Results flagged for a closer look

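For 4 nuclear genes the same contrast had opposite directions in melanotroph-like and SC-like cells, with both intervals away from 0. The differences were not tested, since there was 1 library per genotype. Ndufa1 in P27NULL against WT had log2 ratios of 0.19 in melanotroph-like and -0.31 in SC-like cells, a difference of 0.50. Ndufv3 in the same contrast had 0.08 and -0.33, a difference of 0.41. In S2CK against P27NULL, Atp5a1 had -0.13 and 0.45, a difference of -0.59, and Ndufc2 had 0.09 and -0.27, a difference of 0.37. With TMM factors both intervals stayed away from 0 for Ndufa1 only. The melanotroph-like values of Ndufv3 and Atp5a1 became 0.0012 (-0.054 to 0.056) and -0.002 (-0.069 to 0.065), and the SC-like value of Ndufc2 became -0.16 (-0.42 to 0.10). Ndufa1 and Ndufv3 encode accessory subunits of complex I, as does Ndufc2, and Atp5a1 encodes the alpha subunit of the ATP synthase.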

How the results depend on the processing

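Values are log2 ratios or numbers of members called. No paired analysis was possible because each genotype had 1 library, and the library was the block between cell types. With TMM factors, or with totals without Pomc, mitochondrial and ribosomal protein transcripts, the nuclear sum of melanotroph-like cells was -0.072 and -0.087 in P27NULL against WT and 0.14 and 0.13 in S2CK against P27NULL, and the mitochondrial sum -0.17, -0.19, 0.68 and 0.67. Nuclear members past the fold numbered 2 and 3, then 35 and 35. In SC-like cells the nuclear sum was -0.17 with TMM in P27NULL against WT and reversed to 0.031 and 0.051 in S2CK against P27NULL, and the mitochondrial sum was -0.20, -0.15, 0.72 and 0.74. TMM gave 23 members past the fold in P27NULL against WT.

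Keeping only cells with at most 5% mitochondrial UMIs, which leaves 76 melanotroph-like and 3 SC-like cells of S2CK, selects on the quantity compared. In S2CK against P27NULL the sums of melanotroph-like cells then reversed to -0.13 (nuclear) and -0.10 (mitochondrial), as did mt-Co1 (-0.23), mt-Nd1 (-0.52), mt-Nd2 (-0.32), mt-Nd4 (-0.43) and mt-Nd6 (-0.43), and in SC-like cells mt-Cytb (-0.47), mt-Nd4 (-0.14) and the nuclear median (-0.33). The SC-like sums were -0.37 and 0.24. In melanotroph-like cells mt-Atp6 (0.17), mt-Co3 (0.11), mt-Co2 (0.054) and mt-Cytb (0.052) fell short of the fold. In P27NULL against WT mt-Co1 (0.037, SC-like 0.10), mt-Nd3 (-0.0024), and in SC-like cells mt-Cytb (0.036) and mt-Nd4 (0.014) reversed. The mitochondrial sums were -0.070 and -0.00075, the nuclear sum of SC-like cells -0.14, and 5 and 32 members passed the fold.

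With the mean share per cell, the nuclear sum of S2CK against P27NULL reversed to -0.00027 in melanotroph-like cells. The mitochondrial sum was 0.63 (SC-like 0.66), and in P27NULL against WT -0.18 (-0.086), with the nuclear sum of SC-like cells at -0.033 and 2 melanotroph members past the fold. mt-Nd3 in melanotroph-like cells of P27NULL against WT reversed with TMM (-0.0035), the other total (-0.018) and the mean per cell (-0.15). Within a sex the nuclear and mitochondrial sums of melanotroph-like cells were 0.015 and -0.10, then 0.034 and 0.52, those of SC-like cells in S2CK against P27NULL -0.11 and 0.50, and mt-Nd1 (-0.13) and the SC-like nuclear median (-0.049) reversed. Joint clusters gave -0.10 for the mitochondrial sum of SC-like cells in P27NULL against WT.

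Between cell types, leaving out 1 library gave 17 to 28 nuclear calls in SC-like, 2 to 8 in gonadotroph-like, 1 to 5 in Pou1f1-lineage-like, 6 to 17 in macrophage-like, 11 to 27 in endothelial-like cells and, in connective tissue-like cells, 5 to 9, and 0 to 2, 0 to 1, 0 to 0 and 3 to 9 mitochondrial calls in the 4 middle types. Nuclear and mitochondrial calls by DESeq2 were 25 and 5 (gonadotroph-like) and 7 and 2 (Pou1f1-lineage-like), with 2 mitochondrial in macrophage-like and 1 in connective tissue-like cells. With no filter on low counts they were 6 and 1, 12 and 6, then 9 mitochondrial in macrophage-like, 48 and 13 in endothelial-like, 27 and 3 in connective tissue-like and 2 mitochondrial in SC-like cells. With the other library sizes they were 8 and 1, 62 and 13, 53 and 13 in macrophage-like, 1 mitochondrial in connective tissue-like and 2 in SC-like cells. With no library block they were 5 and 0, 1 and 0, 10 and 0 in macrophage-like, 3 mitochondrial in endothelial-like and 9 nuclear in connective tissue-like cells. With free RNA subtracted they were 9 and 1, 2 nuclear in Pou1f1-lineage-like, 6 mitochondrial in macrophage-like and 27 and 1 in connective tissue-like cells. The cause of these changes was not tested. Of 467 alternatives for the 47 named values between cell types, 78 lost the call and 0 reversed. Of 567 for the 72 gene values between genotypes, 165 moved beyond the counting interval and 16 reversed.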
